A study of Mus musculus with 2 samples.

Results

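The immediate early transcription factors of the Fos, Jun and Egr families were compared between mouse ES cells that lived on Baf53a and cells that lived on its neuronal homologue Baf53b. Probes were taken when the RefSeq accession of the probe belonged to Fos, Fosb, Fosl1, Fosl2, Jun, Junb, Jund, Egr1, Egr2 or Egr3. All 10 genes had a probe, 11 probes in all, among 20823 named genes on the array. Both groups came from 1 clone derived from E14 ES cells and called Baf53a cKO (conditional knockout), in which both Baf53a alleles were mutated by CRISPR/Cas9 and a resistant Baf53a cDNA was shut off by tetracycline (Tet). The cells labelled Baf53a-expressing received the pCAGIP-Myc vector for Baf53a, and those labelled Baf53b-expressing the same vector with Baf53b. Both then spent 6 days in Tet at 1 μg/mL, added 48 h after transfection, in medium with serum and LIF. There was 1 array of total RNA per condition. The spread between cultures is therefore unknown, and the differences are given without tests or p-values.

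Fos proteins pair with Jun proteins through leucine zippers to form the transcription factor AP-1, and Jun proteins can also pair with each other. Egr proteins are zinc finger factors that bind GC-rich sites. In many cell types these genes are transcribed within minutes of a stimulus such as serum, through serum response factor and CREB bound to their promoters, without the need for new protein, and their transcripts are short-lived.

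Signals are the background-subtracted brightness of the spots. They were put on a log2 scale with the 75th percentile of each array set to 0, a signal of 1161 on the Baf53a array and 1127 on the Baf53b array. The scanning software called 29247 of 39411 probes well above background on both arrays at once, and these gave values for 16608 named genes. The labels were checked first. In Baf53a-expressing cells the probe of Actl6b, the gene for Baf53b, gave a signal of 3.40, which was not well above background, against 119 in Baf53b-expressing cells. The latter was at least 14.5-fold higher than the lowest signal called well above background on the Baf53a array. The probe of Actl6a, the gene for Baf53a, stood at 1.71 and 1.68 on the log2 scale. These values are nearly equal, so this probe does not check the Baf53a label. All 10 ES cell markers examined could be measured on each array, with log2 differences from -0.15 for Esrrb to 0.07 for Sox2. Of these markers 8 were lower in Baf53b-expressing cells, beside 50.8% of all genes, with a median of -0.08. Most of their probes were in the brightest of 5 groups of equal size. In that group 24.2% of probes were higher in Baf53b-expressing cells, and the median difference was -0.06. Differences throughout are Baf53b- minus Baf53a-expressing cells.

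The 4 genes of the Fos family were all higher in Baf53b-expressing cells, by 0.17 to 0.34 on the log2 scale (median 0.23). The Jun family lay between -0.14 and 0.06, and both Egr genes that could be measured were lower, by -0.11 and -0.08. No gene of the families differed by 2-fold, a difference reached by 0.193% of all named genes measured. Fosb and Fosl1 were at least 1.2-fold higher, as were 8.48% of all genes. None was at least 1.2-fold lower, against 3.41% of all genes. Over the 9 genes measured, the median difference was 0.06, beside -0.0031 over all genes, and 6 were higher by any amount, beside 49.2% of all genes, and 3 lower, beside 50.8%. These differences are small, and 1 array per condition does not show whether they exceed the spread between cultures. In bulk RNA, fewer cells expressing a gene and less RNA per cell cannot be told apart.

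**Figure D1:**
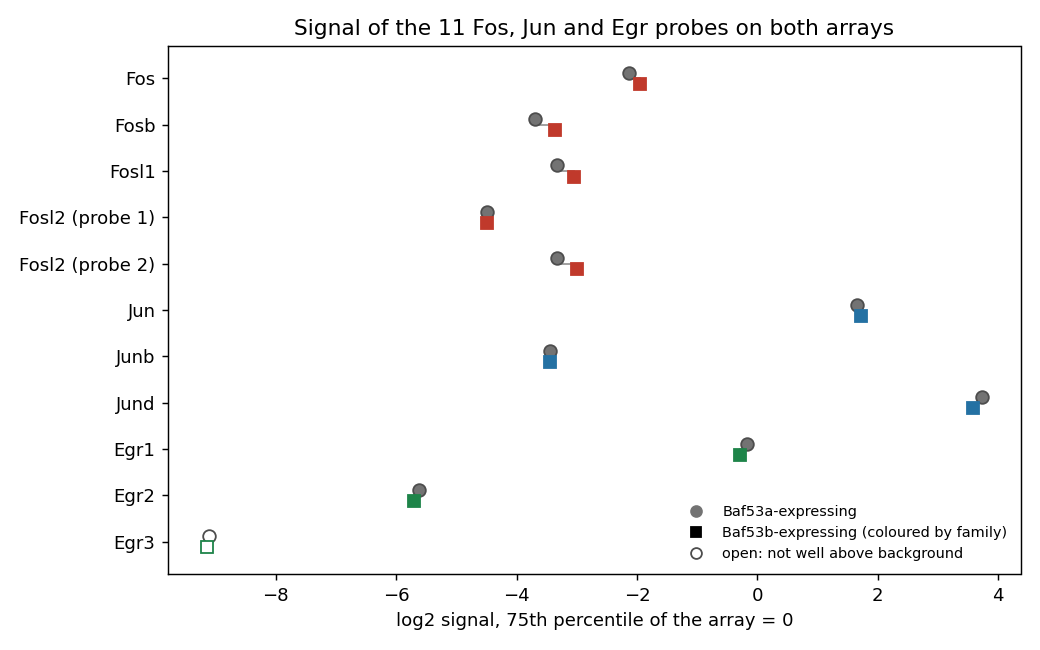
Signal of each Fos, Jun and Egr probe on the array of Baf53a-expressing (circles) and Baf53b-expressing cells (squares), on a log2 scale with the 75th percentile of the array at 0. Open symbols mark the Egr3 probe, which was not well above background. Distances between symbols of 1 probe can be read, but levels of different probes cannot be compared; the squares lie to the right for Fos, Fosb, Fosl1 and 1 of the Fosl2 probes and to the left for Jund, Egr1 and Egr2.

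Promoter windows, from 250 bases before to 50 bases after the annotated start, were found in RefSeq (build GRCm38.p6) for 7 of the 10 genes, with 5 windows for Egr2 and 1 for each of the others. The genes shown were picked by their differences, and Fosl1, which was also higher, is not among them. The windows of Fos, Fosb and Fosl2 are shown because these genes were higher together, and that of Egr2 because it was lower and holds the motif bound by serum response factor. They lie at chr12:85473640-85473939 on the plus strand for Fos, chr7:19309996-19310295 on the minus strand for Fosb, chr5:32136222-32136521 on the plus strand for Fosl2 and chr10:67537619-67537918 on the plus strand for Egr2. Each is written 5′ to 3′ along the gene, and capitals mark TGACGT (the core of the CREB site), TATAAA, GCGNGGGCG (the Egr site) and the CArG box (the site of serum response factor) on either strand.
Fos: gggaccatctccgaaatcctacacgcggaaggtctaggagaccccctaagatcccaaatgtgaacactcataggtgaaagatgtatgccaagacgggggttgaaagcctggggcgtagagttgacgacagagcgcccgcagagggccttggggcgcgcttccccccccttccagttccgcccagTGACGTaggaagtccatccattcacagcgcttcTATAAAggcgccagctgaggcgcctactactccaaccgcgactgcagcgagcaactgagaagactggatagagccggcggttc
Fosb: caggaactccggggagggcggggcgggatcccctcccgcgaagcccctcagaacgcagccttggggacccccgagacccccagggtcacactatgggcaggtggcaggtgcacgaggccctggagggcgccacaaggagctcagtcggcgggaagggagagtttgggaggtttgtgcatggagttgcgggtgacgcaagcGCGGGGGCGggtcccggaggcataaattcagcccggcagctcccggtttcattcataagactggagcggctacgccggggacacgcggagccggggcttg
Fosl2: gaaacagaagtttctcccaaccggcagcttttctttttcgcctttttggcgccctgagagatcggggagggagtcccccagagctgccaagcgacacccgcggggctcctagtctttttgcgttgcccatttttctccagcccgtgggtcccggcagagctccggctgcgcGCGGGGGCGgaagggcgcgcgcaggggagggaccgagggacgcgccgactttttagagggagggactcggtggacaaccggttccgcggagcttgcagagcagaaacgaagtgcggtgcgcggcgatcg
Egr2: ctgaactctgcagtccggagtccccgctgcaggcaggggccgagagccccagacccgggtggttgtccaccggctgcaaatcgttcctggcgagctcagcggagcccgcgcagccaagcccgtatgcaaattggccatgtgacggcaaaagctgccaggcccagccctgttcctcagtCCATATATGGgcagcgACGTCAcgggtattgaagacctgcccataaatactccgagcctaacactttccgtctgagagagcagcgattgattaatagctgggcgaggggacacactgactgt
In the Fos window, TGACGT begins 66 bases before the start and TATAAA 33 bases before it. The Fosb and Fosl2 windows each hold 1 GCGNGGGCG, beginning 50 and 79 bases before the start, and neither holds the other motifs in capitals. In the Egr2 window shown, the CArG box begins 72 bases before the start and TGACGT, read on the opposite strand, 56 bases before it. Of the 5 Egr2 windows, this was the first with the most of the motifs in capitals, so its content follows from that choice. The CArG box was in 4 of the 11 windows of these 7 genes, all of Egr2. Among 32851 windows of all genes, TGACGT was found in 7.51%, TATAAA in 13.6%, GCGNGGGCG in 5.55% and the CArG box in 1.63%. The AP-1 site TGANTCA was in none of the windows of these 7 genes and in 7.81% of all windows, and the full CREB site TGACGTCA, which contains TGACGT, was also in none of them and in 1.79% of all. GCGNGGGCG overlaps the GC box GGGCGG in both the Fosb and the Fosl2 window. Bases farther than 250 before the start were not searched, so a motif absent here may lie outside the window. A match describes letters only. No binding was measured in these cells.

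Fos, the prototype of its family, had a probe printed as 10 spots across each array. In Baf53a-expressing cells the spots ran from 249 to 283 with a median of 266, and in Baf53b-expressing cells from 263 to 344 with a median of 290. All 10 positions were brighter on the Baf53b array, also before scaling. After scaling, 8 of the 10 spots in Baf53b-expressing cells lay above the brightest spot in Baf53a-expressing cells. The log2 signal was -2.13 ± 0.06 (SD, n = 10 spots) and -1.95 ± 0.11, a difference of 0.18 or 1.13-fold. Differences at the 10 positions ran from 0.08 to 0.41, and the position with 0.41 stood apart from the next, at 0.22. Without it the mean was 0.16. Spots of 1 probe share their RNA, labelling and hybridisation, so that their spread says nothing of culture or labelling. Fos was 1 of 69 probes of like brightness printed as 10 spots, over which the SD of the difference was 0.14, with 13 above Fos and 55 below it.

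**Figure D2:**
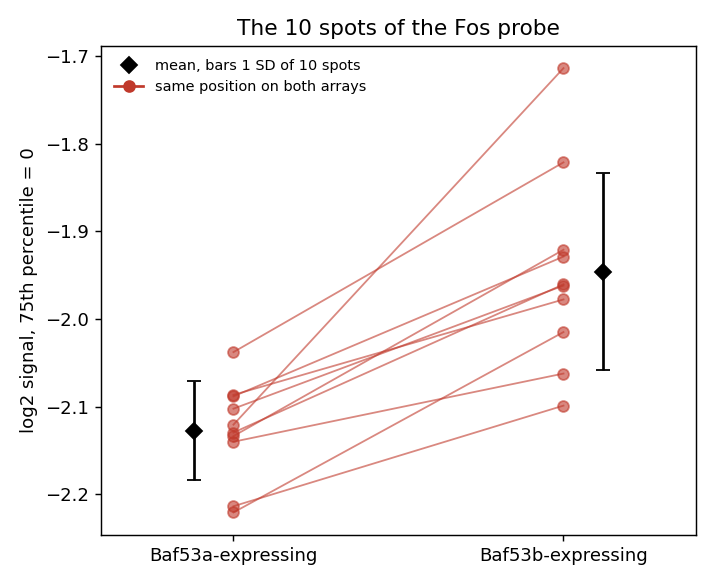
The 10 spots of the Fos probe, joined by their position on both arrays, as log2 signal with the 75th percentile of each array at 0. Diamonds are means with bars of 1 SD over the spots (-2.13 ± 0.06 and -1.95 ± 0.11); every line rises from the Baf53a to the Baf53b array.

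Fosb, a close relative of Fos with a strong activation domain, gave a signal of 89.6 in Baf53a- and 110 in Baf53b-expressing cells. After scaling it was 1.27-fold higher in Baf53b-expressing cells, a log2 difference of 0.34 and the largest in the families. Of all named genes measured, 4.96% were higher than that. Fosl1, the gene for Fra-1, which lacks such a domain and often persists after the first wave of induction, gave 115 and 137, a difference of 0.29 or 1.22-fold. The 2 probes of Fosl2, the gene for Fra-2, disagreed. Probe 2 (A_55_P1995195) gave 115 and 141, a difference of 0.33, whereas probe 1 (A_51_P507242) gave 51.3 and 50.3, a difference of 0.01. The gene value of 0.17 is their mean. Which part of the transcript each probe reads was not analysed here. Thus 4 of the 5 Fos family probes were higher by 0.18 or more, and 1 gave nearly equal signals.

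Jun, a partner with which Fos proteins bind DNA, gave 3654 and 3698, a log2 difference of 0.06. Junb, which often opposes Jun in growth control, gave 106 and 103, which after scaling was a difference of 0.0012. Jund, the family member present in resting cells, was lower in Baf53b-expressing cells, with 15378 and 13538, a difference of -0.14. The Jun genes thus lay on both sides of 0, and the contrast with the Fos family was not tested. The sign of Junb depended on the scaling, with -0.05 when arrays were centred on the median, -0.05 under quantile normalization and -0.06 under cyclic loess.

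Egr1, the best known immediate early gene of its family, gave 1028 in Baf53a- and 926 in Baf53b-expressing cells, a difference of -0.11 or 1.08-fold lower. Egr2, also called Krox20 and required for hindbrain and Schwann cell development, was dim, with 23.5 and 21.7 and a difference of -0.08. Egr3, known from muscle spindle and T cell development, was not well above background on either array, with signals of 2.10 and 1.99, near the median of 2.24 and 2.13 of 153 negative control spots. It was given no difference. Egr4, which was not among the genes chosen, went the same way as Egr1 and Egr2, with 714 and 573, a difference of -0.27 or 1.21-fold lower. Of the 5850 probes of like brightness, 2.14% were lower than Egr4.

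Each value was set against what these arrays hold on error. The scanning software gives an error of about 10% of the signal for all but the dimmest spots, so that a log2 difference between the arrays carries an error of 0.20 to 0.28 for the 10 probes measured. The probes of Fosb and Fosl1 and the higher Fosl2 probe differed by more than this error, and 0 of the 10 differed by more than 2 times this error. Counted by probe, 3 of the 10 were at least 1.2-fold higher, beside 10.5% of all probes and 14.1% of those in the brightness group that holds all 3, the second of 5 from the dim end, and 0 were that much lower, beside 3.94%. None reached 2-fold, as 0.253% of all probes did, and 7 were higher by any amount, beside 49.7%, and 3 lower, beside 50.3%. Dim probes also varied more and lay higher in Baf53b-expressing cells. In 5 groups of equal size, from dim to bright, the median difference of all probes was 0.10, 0.05, 0.02, -0.02 and -0.06, with SDs of 0.32, 0.21, 0.15, 0.12 and 0.11. Most Fos family probes were in the second group, and Jun, Egr1 and Jund in the brighter ones. Relative to the median of their own group, Fosb still stood at 0.28, Fosl1 at 0.23, the higher Fosl2 probe at 0.28 and Fos at 0.16. In their groups, 7.93%, 11.5%, 8.45% and 13.2% of the probes were higher. Relative to their groups Jund was at -0.08, Egr1 at -0.09 and Egr2 at -0.18, where 17.0%, 19.6% and 25.9% of the probes were lower. Junb was at -0.05, the lower Fosl2 probe at -0.04 and Jun at 0.08. Under cyclic loess, which removes trends with brightness, the differences were 0.27 for Fosb, 0.23 for Fosl1, 0.15 for Fos and 0.10 for Fosl2, with -0.09 for Jund, -0.10 for Egr1 and -0.15 for Egr2.

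**Figure D3:**
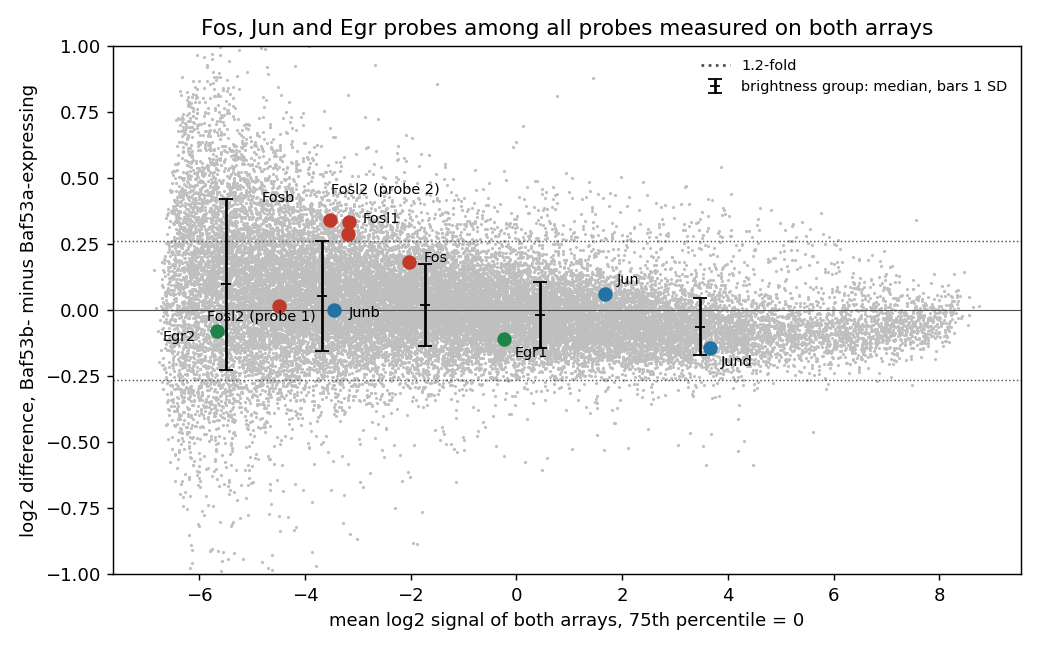
Log2 difference between the arrays (Baf53b- minus Baf53a-expressing) against mean log2 signal for all 29247 probes measured on both (grey) and the 10 Fos (red), Jun (blue) and Egr (green) probes among them. Black marks give the median and bars 1 SD of each of 5 brightness groups, and dotted lines 1.2-fold; the 74 probes at least 2-fold apart lie at or beyond the frame. Of the 5 Fos family probes, 4 lie above the median of their group, as does Jun, while Fosl2 probe 1, Junb, Jund and the Egr probes lie below theirs.

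Other genes of the pathway were compared by lists. The 13 further dimer partners of Fos and Jun had a median difference of 0.04, and 8 of them were higher (61.5%, beside 49.2% of all genes). At the top was Atf3, a stress-induced factor that pairs with Jun, at 0.35 or 1.27-fold higher. At the bottom were Batf, a partner of Jun in lymphocytes, at -0.24 and Jdp2, which represses AP-1 sites, at -0.11. Of 44 other immediate early genes, 35 (79.5%, beside 49.2% of all genes) were higher in Baf53b-expressing cells, with a median of 0.05. At least 1.2-fold higher were 2 of them (4.55%, beside 8.48% of all genes), and 1 was that much lower, beside 3.41% of all genes. The 2 higher ones were Ier5, at 0.33 from probes with 0.20 and 0.46, and Klf6, a zinc finger factor, at 0.33. The lowest were Egr4 and Zfp36l1, an mRNA decay factor, at -0.14. Nr4a3 was not well above background on either array. Most probes of the other immediate early genes were in the 2 brightest of 5 groups. There 42.6% and 24.2% of probes were higher, with median differences of -0.02 and -0.06. With arrays centred on the median, where all genes lay at -0.05, the medians of these lists were -0.01 for the partners and -0.00084 for the other immediate early genes.

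Upstream factors were compared in the same way. The 13 genes measured of serum response factor, its ternary complex partners, CREB and their cofactors had a median of 0.04. At least 1.2-fold apart were 0 of them, beside 8.48% of all genes higher and 3.41% lower. The highest were Mef2a and the coactivator Crebbp, both at 0.26, and the lowest Crem at -0.19 and Mrtfa at -0.09. Srf itself stood at -0.08. The 3 probes of Crem disagreed, from -0.68 to 0.15. The 25 genes of MAP kinase cascades, the route from Ras to these factors and the branches through JNK and other kinases, had a median of -0.01. Of these, 11 (44%) were higher, beside 49.2% of all genes, and 14 were lower. Mapk10, the gene for the neuronal JNK3, was the highest of any list at 0.60, with 0.53 and 0.68 from its 2 dim probes, and Map2k7, an activator of JNK, stood at 0.23. Map2k6 at -0.22 and Mapk7 at -0.16 were the lowest. The 10 corepressors of Egr proteins and genes of Jun turnover had a median of 0.01 and none was at least 1.2-fold apart, with Nab2 highest at 0.17, from probes with -0.11 and 0.46, and Cops5 at -0.10 and Nab1 at -0.07 lowest.

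Among genes named as targets of AP-1 or Egr proteins in other cells, 26 of 30 were measured, with a median of 0.11. In Baf53b-expressing cells 19 of these were higher (73.1%, beside 49.2% of all genes) and 7 lower. Of the targets, 8 were at least 1.2-fold higher, a share of 30.8% beside 8.48% of all genes. At least 1.2-fold lower was 1, Pdgfb, beside 3.41% of all genes, and Mmp10, named after its value was seen, was well above background on the Baf53a array only, at least 1.30-fold lower in Baf53b-expressing cells. Thbs1, the gene for thrombospondin 1, was highest at 0.46, followed by the keratin gene Krt8 at 0.44. Pdgfb was lowest at -0.49, with probes at -0.94 and -0.05, followed by Pdgfa at -0.12. Of the 8 genes, 3 (Plau, Lif and Il6, named after their values were seen) were in the dimmest group of probes, where 28.1% of all probes were at least 1.2-fold higher. Krt18, named in the same way, was bright and stood at 0.32, in a group where 1.76% of probes were that much higher. Both keratin genes are also expressed in extraembryonic endoderm, and markers of primitive endoderm differed in the same direction. All 12 markers of that lineage examined, a list added after the data were seen, could be measured on each array. All 12 were higher in Baf53b-expressing cells, beside 49.2% of all genes, with a median of 0.27. At least 1.2-fold higher were 7, beside 8.48% of all genes. Their summed signal was 207 and 217 times the 75th percentile. Gata4 stood at 0.22, Gata6 at 0.21 and Sox17 at 0.27. Dab2 was the highest of these markers at 0.40, and Sparc at 0.01 and Sox7 at 0.08 were the lowest. Their part in the values of the Fos family or of the target genes was not tested. These lists were chosen with results of these data known, and their counts describe these arrays only.

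**Figure D4:**
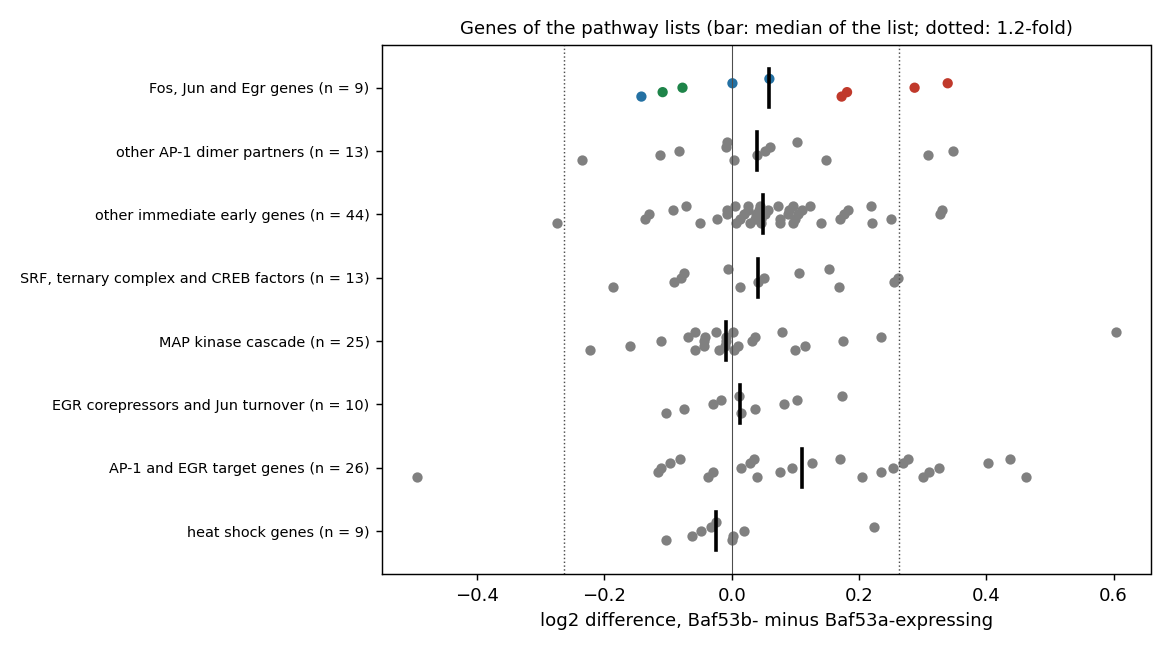
Log2 difference between the arrays (Baf53b- minus Baf53a-expressing) of every measured gene of the Fos, Jun and Egr families (red, blue, green) and of 7 lists of related genes (grey), 1 point per gene, with the number of genes beside each name. Black bars are medians and dotted lines 1.2-fold; of the 7 lists the target genes have the highest median, 0.11, and Mapk10 the highest single value, 0.60.

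The directions within the families were then followed through the other ways of processing the arrays. In 9 of the 10 alternatives the Fos family could be measured, and all 4 genes were higher in Baf53b-expressing cells in each of them, with family medians from 0.18 to 0.31. Without the filter and with the weaker detection flag, these genes had exactly the reported values. Keeping outlier spots and the authors' value table gave nearly the same values, 0.1813 and 0.1815 for Fos beside 0.1812. Directions under those settings add nothing to the reported ones. Over the alternatives Fosb ranged from 0.24 to 0.34, Fosl1 from 0.23 to 0.29, Fos from 0.13 to 0.18 and Fosl2 from 0.10 to 0.33. Jund ranged from -0.19 to -0.08, Egr1 from -0.16 to -0.08 and Egr2 from -0.20 to -0.02, always lower. All these settings use the same 2 arrays and are no substitute for a second pair of cultures.

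**Figure D5:**
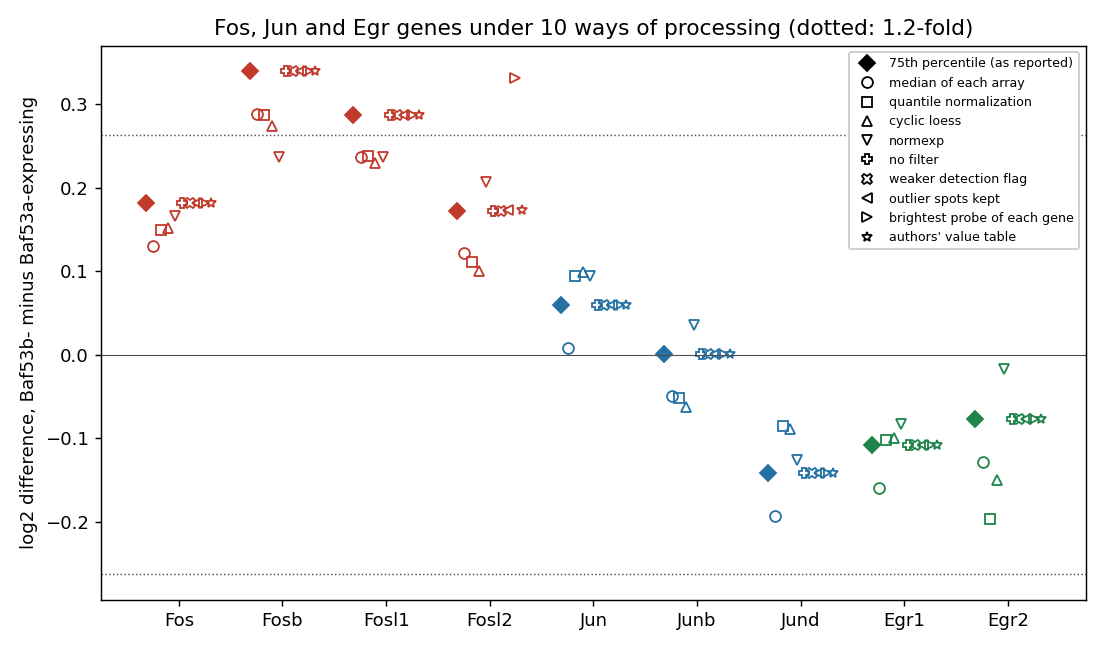
Log2 difference of each Fos, Jun and Egr gene measured (Baf53b- minus Baf53a-expressing) under the reported processing (filled diamonds) and 9 alternatives (open symbols), with dotted lines at 1.2-fold. The Fos family stayed above 0 and Jund, Egr1 and Egr2 below it, while Junb lay on both sides of 0. No filter and the weaker detection flag repeat the reported values.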

How the data were processed

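Total RNA of both cell populations was labelled with Cy3 and hybridised to mouse arrays that use 1 colour. Per the file headers and the submitters' processing notes, the authors extracted the images with Agilent Feature Extraction 11.0.1.1 on a design annotated on mm9, and deposited the intensity of each spot, from which background and a spatial trend had been removed, with an error, flags and the median spot and background intensity. They also deposited a table of ratio values, which for 30479 probes per array equalled the mean signal of the probe divided by 1 number per array, within 0.1% for 100% of them. Column medians were 0.257 and 0.262; the sources used here do not name that scaling.

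Control spots and spots marked as outliers were left out, spots of the same probe were averaged as log2 signals, and arrays were aligned by giving their 75th percentile the value 0. The software's flag for well above background had to be set in 50% or more of the spots of a probe. The value of a gene is the mean over its probes well above background on both arrays. RefSeq accessions were matched to symbols in a table of GRCm38.p6. As the array design is on another build, that table gave names but no gene coordinates. A single array per condition allowed no test, and limits of 1.2-fold and 2-fold were used for counts. The genes named were all genes of the 3 families, both Baf53 genes, the 2 highest and 2 lowest genes of each pathway list and any gene of a list at least 2-fold apart, of which some are not reported here. Marker lists covered ES cells, fibroblasts and neurons, and primitive endoderm, which was added after seeing the data. The genes and lists were chosen with earlier results of these data known. Alternatives were other scalings (median, quantile, cyclic loess), normexp background correction with an offset of 50 on the median intensity, no filter and a stricter filter, a weaker detection flag, outlier spots kept, the brightest probe of a gene and the authors' value table. The number of arrays limits the precision. Python 3.11.15, pandas 2.3.3, R 4.3.3 and limma 3.58.1 were used, and the steps were tested on simulated data.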

Additional observations from a re-analysis of the deposited data

How the results depend on the processing

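Between the alternatives the count of Fos, Jun and Egr genes at least 1.2-fold higher was 2 as reported, 1 with arrays centred on the median, 1 under quantile normalization, 1 under cyclic loess, 0 with normexp, 0 with the stricter filter, which left 2 of the genes, and 3 with the brightest probe of each gene. The cause was not tested for normexp or the scalings. Centring on the median shifted all genes to a median of -0.0537, so that 0.13 for Fos and 0.29 for Fosb there are to be read against it. Of all genes, 8.48% were at least 1.2-fold higher and 3.41% lower as reported, 5.91% and 5.91% with median centring, 5.55% and 5.41% under quantile normalization, 6.03% and 5.11% under cyclic loess, and 2.90% and 0.692% with normexp. Fosl2, at 0.33 from its brightest probe, was the single gene value to move by more than the spot SD in its brightness group. No called difference changed sign, and the other 83 values of these genes moved by less than the spot SD. These include values without the filter and with the weaker detection flag, which repeat the reported ones. The mean SD of probes as bright as these genes was 0.187, and 0.184 with 10 brightness groups. The median of the heat shock genes turned from -0.02 to 0.05 under quantile normalization and 0.04 under cyclic loess. No paired analysis was possible because each condition had 1 array, and for the same reason no replicate could be left out. Normexp also started from the median spot signal in place of the processed signal. Signal over background limits Egr2, and Egr3 was too dim for a value; without the filter it stood at -0.04.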

Other observations

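Markers of other cells and genes that respond to handling were looked at beside the immediate early genes. The 9 heat shock genes measured had a median of -0.02, with 3 on the higher side in cells with Baf53b (33.3%, beside 49.2% of all genes). Most of these genes were in the brightest of the 5 groups of probes, where 24.2% of probes were higher and the median difference was -0.06. The inducible Hspa1a was highest at 0.22 and Bag3 lowest at -0.10, and the summed signal of the list was 763 and 744 times the 75th percentile. Fibroblast markers were dim. Of 8, 6 were measured on both arrays with 5 higher (beside 49.2% of all genes, and 64.6% and 61.4% of probes in the 2 dimmest brightness groups) and a median of 0.17, Dcn highest at 0.37, Thy1 lowest at -0.15, Postn not well above background on either array, and Col3a1 well above it on the Baf53b array only, at least 1.33-fold higher. Their summed signal was nearly equal, 1.42 and 1.41 times the 75th percentile. Of 6 neuronal markers, 4 were higher (66.7%, beside 49.2% of all genes), with a median of 0.11. Snap25, a synaptic fusion protein, stood at 0.35 and Rbfox3 at 0.25, while Tubb3 and Syn1 stood at -0.15. The Rbfox3 value came from probes in the 2 dimmest groups. A further probe of Rbfox3 and 1 of Map2 were well above background on the Baf53b array only, at least 1.23-fold and 1.51-fold higher. The summed signal of the neuronal markers was 18.7 and 20.5 times the 75th percentile. Their part in the values of the Fos family was not tested.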
